A study of Mus musculus with 144 samples.

Results

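The genes described here are 8 enzymes of the cholesterol synthesis pathway, *Hmgcs1*, *Mvd*, *Fdps*, *Fdft1*, *Sqle*, *Lss*, *Cyp51* and *Dhcr7*. They were chosen by name, as 8 of the 55359 genes in the count files, and their counts were read in every library. RNA was measured in primary hepatocytes from male mice aged 28 days, isolated by collagenase perfusion and plated on type I collagen in Williams' E medium with serum and dexamethasone. Per the study's methods, this medium was replaced after attachment, when treatment began. The new medium is listed with ITS premix and dexamethasone but without serum. The cells received 10 nM TCDD, a dioxin that activates the aryl hydrocarbon receptor (AHR), or its vehicle DMSO, and were harvested on the first day, 2, 4, 8 or 12 h later, or at 24, 48, 72, 96 or 120 h. The libraries fell into 36 groups of 4, by treatment, hour and genotype label. The WT label stands for C57BL/6NCrl mice. The PkmΔDRE label stands for mice with a whole-body CRISPR-Cas9 deletion of a dioxin response element (DRE) in an intron of *Pkm*, from founders backcrossed to C57BL/6N. The labels do not say which libraries came from separate animals or cultures, so p-values measure only the spread between these libraries, which may be technical.

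Cholesterol is built from acetyl-CoA. *Hmgcs1* encodes the synthase that makes HMG-CoA, and *Mvd* encodes the decarboxylase that ends the mevalonate steps with isopentenyl diphosphate. *Fdps* joins isoprene units into farnesyl diphosphate, the branch point to sterols and to prenylated proteins. *Fdft1* (squalene synthase), *Sqle* (squalene epoxidase) and *Lss* (lanosterol synthase) carry farnesyl diphosphate to lanosterol, the first sterol. *Cyp51* removes a methyl group from lanosterol, and *Dhcr7* is the reductase that ends one branch with cholesterol. In the liver these genes are known to be switched on together by sterol regulatory element binding proteins (SREBPs) when membrane sterol is low, and SREBPs often act beside the factors NF-Y and Sp1.

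Promoter sequences are shown because most of these genes fell with hours in culture (values given further on), and because AHR binds the DRE core GCGTG. The RefSeq table (GRCm38.p6) held 7 promoters, for *Hmgcs1*, *Mvd*, *Lss*, *Cyp51* and *Dhcr7*. Each sequence that follows lies upstream of annotated exons and runs 5′ to 3′ on the strand of the gene. Capitals mark GCGTG (DRE core), TCACNCCA (a form of the sterol regulatory element), CCAAT (NF-Y box) and GGGCGG (GC box, bound by Sp1), each on either strand. *Cyp51* and *Dhcr7* are among the 4 members with the highest level per kilobase. *Hmgcs1* and *Mvd* were added after their values were seen, since their levels with TCDD at 8 h lay on opposite sides of vehicle under the WT label.
Hmgcs1, chr13:119690101-119690350, plus strand: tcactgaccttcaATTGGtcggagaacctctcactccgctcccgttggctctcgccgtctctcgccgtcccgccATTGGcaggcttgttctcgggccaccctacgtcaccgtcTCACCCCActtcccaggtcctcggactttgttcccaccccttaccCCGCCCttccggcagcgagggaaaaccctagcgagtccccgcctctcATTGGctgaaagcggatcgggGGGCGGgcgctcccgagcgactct
Mvd, chr8:122443423-122443672, minus strand: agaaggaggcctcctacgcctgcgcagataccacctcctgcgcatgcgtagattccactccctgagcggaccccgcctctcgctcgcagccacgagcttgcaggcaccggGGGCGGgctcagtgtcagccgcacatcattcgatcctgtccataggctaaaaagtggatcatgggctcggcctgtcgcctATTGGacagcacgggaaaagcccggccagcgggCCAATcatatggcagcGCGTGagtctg
Cyp51, chr5:4104747-4104947, minus strand: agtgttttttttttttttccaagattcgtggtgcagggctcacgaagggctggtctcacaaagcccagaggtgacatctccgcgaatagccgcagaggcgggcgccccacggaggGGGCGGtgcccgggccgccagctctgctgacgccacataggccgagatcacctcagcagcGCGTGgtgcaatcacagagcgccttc
Dhcr7, chr7:143822917-143823144, plus strand: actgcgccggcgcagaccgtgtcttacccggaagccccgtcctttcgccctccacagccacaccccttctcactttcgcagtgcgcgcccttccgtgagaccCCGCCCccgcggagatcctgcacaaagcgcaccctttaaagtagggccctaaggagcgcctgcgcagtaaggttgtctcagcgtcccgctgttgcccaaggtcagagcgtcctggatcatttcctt

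The GCGTG core was found in 4 of the 7 promoters, those of *Mvd*, *Lss*, *Cyp51* and a downstream start of *Dhcr7*, against 32.4% of all 32851 promoters in the table. TCACNCCA was found in 1, that of *Hmgcs1*, against 4.36% of all promoters. CCAAT was present in 5 promoters, 1 for each of the 5 genes, against 37.4%, and GGGCGG in 6, against 35.7%. In the downstream *Dhcr7* promoter, which is not printed, a GCGTG and a GGGCGG match share a base. These matches are letters in a window of 300 bases, with no measurement of binding behind them here.

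The libraries held 13588848 to 30719161 read pairs on genes (median 18011825). The labels were checked with *Pkm*, the targeted gene, and *Cyp1a1*, the classic AHR target. Levels are given in CPM, which are counts scaled to the library's pairs on genes, with TMM scaling between libraries. At 8 h in libraries labelled WT, *Pkm* lay at 41.8 to 80.8 CPM with DMSO and 29.3 to 62.6 with TCDD. In libraries labelled PkmΔDRE it lay at 37.8 to 81.5 with DMSO and 109.2 to 169 with TCDD. *Pkm* was thus higher with TCDD under the label of the deletion, against that label, so groups are named by their labels throughout. Mean *Pkm* under the PkmΔDRE label was 47.7 CPM with DMSO and 157 with TCDD at 12 h, and 161 and 429 at 24 h. Under the WT label it was 41.4 and 46.6 CPM at 12 h, and 87.6 and 83 at 24 h. At 2 and 4 h the mean was not higher with TCDD under either label. Whether the genotype labels were exchanged was not tested. *Cyp1a1* went against the treatment label in 4 libraries labelled WT, with 3285 CPM in DMSO 48 h replicate 1, 1717 CPM in DMSO 96 h replicate 3, 1.15 CPM in TCDD 2 h replicate 4 and 29.2 CPM in TCDD 72 h replicate 4. In the other libraries of both labels it lay at 6.24 to 29.8 CPM with TCDD at 2 h, and from 8 to 120 h at 0.4 to 270 CPM with DMSO and 1651 to 8549 CPM with TCDD. In TCDD 96 h replicate 1 of the WT label, 63.3% of strand-assigned counts lay on one strand, against a median of 50.6% over all libraries. A pair of DMSO libraries labelled PkmΔDRE went against their hour. Replicate 4 of 4 h correlated at r = 0.646 with the rest of its group and at 0.981 with WT DMSO 96 h, over 9573 genes. Replicate 4 of 96 h correlated at r = 0.625 with its own group and at 0.982 with PkmΔDRE TCDD 4 h. All other libraries lay at 0.806 to 0.994 with their own group. Values below include every library under its label, and member calls that this pair touches are also given without it.

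The 8 genes lie on 8 chromosomes. In the GENCODE annotation of GRCm38 (the counts follow GRCm39) *Hmgcs1* spans chr13:119690379-119708260, *Mvd* chr8:122433601-122443422, *Fdps* chr3:89093588-89101959 and *Fdft1* chr14:63145150-63179578. *Sqle* spans chr15:59315077-59331192, *Lss* chr10:76531588-76557138, *Cyp51* chr5:4081145-4104746 and *Dhcr7* chr7:143823145-143848410. Their levels spanned a wide range. Per kilobase of exon, the mean over all libraries was 28.4 CPM for *Cyp51*, 27.5 for *Fdft1*, 23.7 for *Sqle*, 23.3 for *Dhcr7*, 11.7 for *Hmgcs1*, 10.1 for *Mvd*, 4.61 for *Lss* and 0.798 for *Fdps*. Exon length here merges all annotated exons of a gene. It is 5.82 kb for *Dhcr7* and 10.8 kb for *Lss*, whose longest transcripts have 2815 and 6992 bases. The order of genes per kilobase depends on the length used. *Fdps* had a median of 52.5 read pairs a library and none in 1 library, so its values carry the most counting error. Reads were counted without strand, and some of the exon bases overlap other genes, 26.7% for *Fdps*, 18.3% for *Fdft1* and 12.1% for *Hmgcs1*, where the genes cannot be told apart. Transcripts of *Fdft1* also share 30.7% of their windows of 50 bases with other annotated genes, mainly *Ctsb*, so its level is uncertain. *Mvd* and *Dhcr7* share no such base or window.

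The order of levels per kilobase of merged exon changed with time in culture. At 2 h with DMSO under the WT label, the level per kilobase was 42.3 ± 17.5 CPM for *Sqle* (SD, n = 4), 38.4 ± 12.5 for *Cyp51*, 35.5 ± 14.6 for *Dhcr7* and 32.7 ± 13.1 for *Fdft1*, with overlapping mean ± SD. *Mvd* followed at 8.87 ± 6.40, *Hmgcs1* at 6.02 ± 2.38 and *Lss* at 3.93 ± 1.29, which overlapped likewise, and *Fdps* was lowest at 0.621 ± 0.781. At 120 h *Fdft1* (12.4 ± 1.11) and *Sqle* (11 ± 0.750) led, followed by *Hmgcs1* (8.45 ± 0.761) and *Cyp51* (7.94 ± 0.964), and mean ± SD overlapped within each pair. *Dhcr7* then stood at 4.67 ± 1.17, next to *Mvd* at 4.14 ± 0.579, with *Lss* at 3.16 ± 0.235 and *Fdps* at 0.406 ± 0.0467. *Hmgcs1*, the first enzyme, thus stood below *Cyp51* and *Dhcr7* at 2 h and beside or above them at 120 h.

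**Figure D1:**
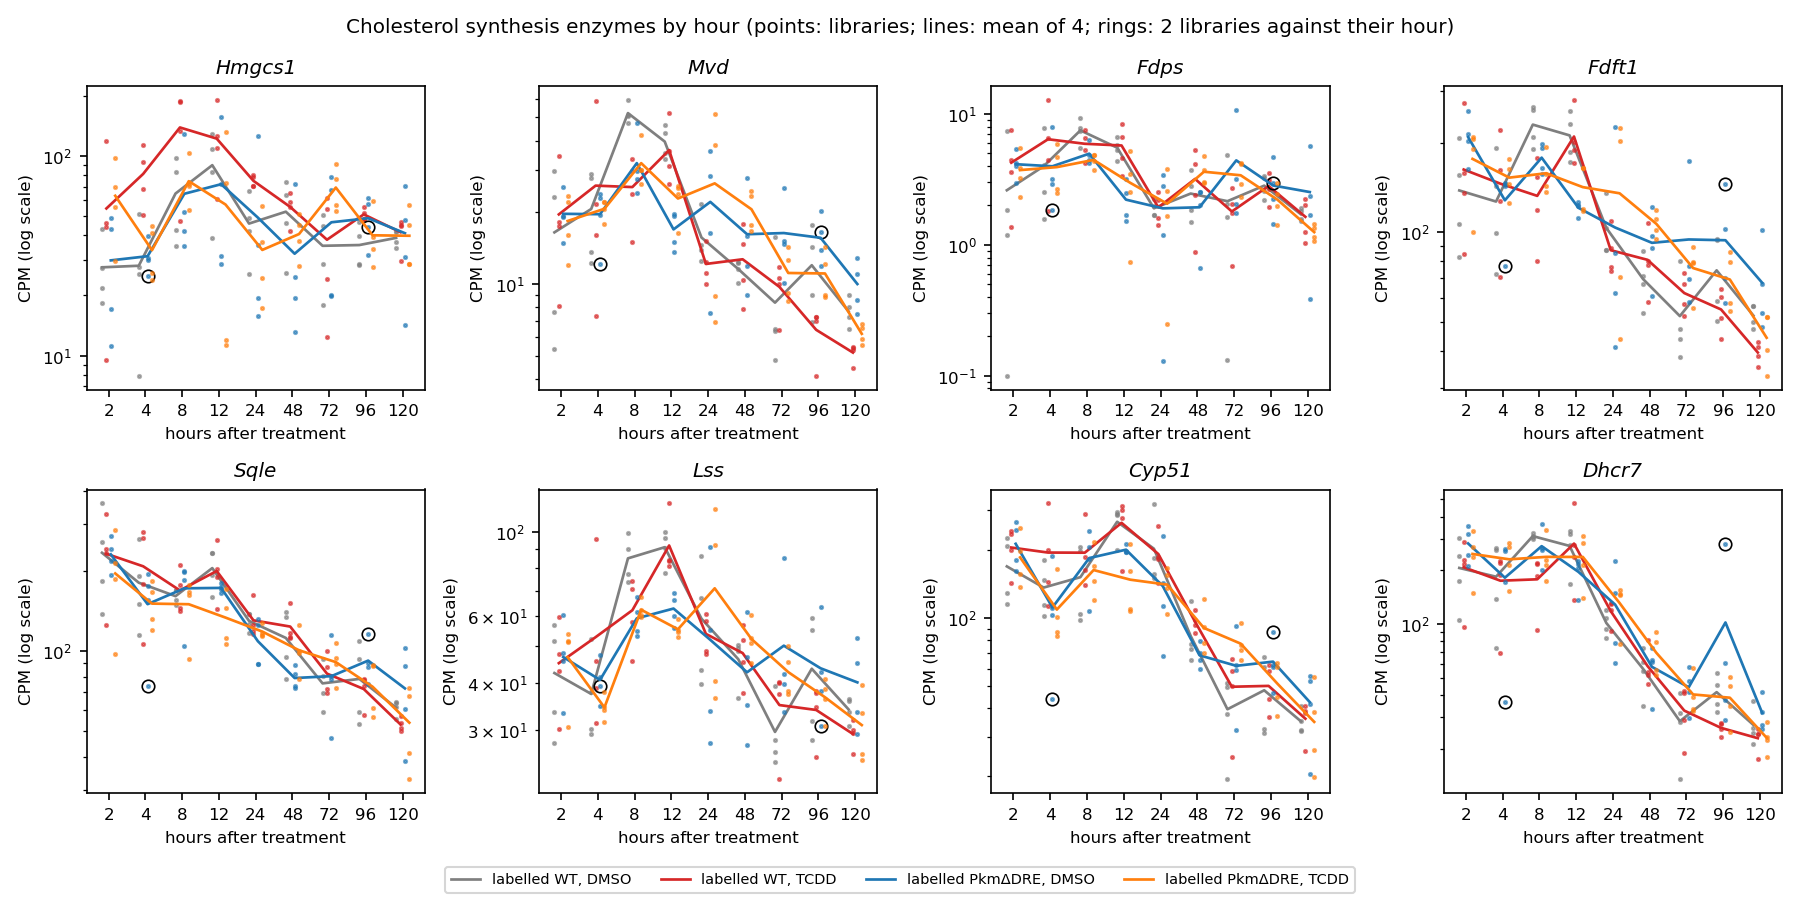
Level of each enzyme in CPM (log axis) against hours after treatment (evenly spaced, not to scale), in 4 colours for label and treatment. Points are libraries, lines join the means of 4 libraries, black rings mark the pair of libraries against their hour, and the library with no *Fdps* read is drawn at 0.1. *Dhcr7*, *Cyp51*, *Sqle* and *Fdft1* end lower than they start in all 4 series, while *Hmgcs1* ends higher than it starts in both DMSO series.

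The vehicle libraries answer how these genes change with time in culture, the base on which the TCDD comparisons sit. *Dhcr7*, the reductase at the end of the pathway, had the widest range. Under the WT label its 4 DMSO libraries held 105.9 to 303 CPM at 2 h, 301 to 323 CPM at 8 h, 83.9 to 119.6 CPM at 24 h, 13.5 to 40.8 CPM at 72 h and 21.2 to 36.9 CPM at 120 h. No library at 24 h or later reached any library at 8 h. The mean went from 311 ± 9.48 CPM at 8 h to 27.2 ± 6.81 CPM at 120 h (SD, n = 4), 11.5-fold apart. *Dhcr7* fell by 1.75 (SE 0.35) on the log2 scale from 8 to 24 h (adjusted p = 0.000249, edgeR), by 1.89 (SE 0.35) from 24 to 72 h (adjusted p = 0.000155) and by 3.12 (SE 0.37) from 2 to 120 h (adjusted p = 1.3e-08).

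*Cyp51*, the lanosterol demethylase, stayed high for longer. Its DMSO libraries labelled WT held 115.9 to 226 CPM at 2 h, 200 to 295 CPM at 12 h, 151 to 320 CPM at 24 h and 19.4 to 51.6 CPM at 72 h. The groups at 24 and 72 h did not overlap, and *Cyp51* fell by 2.41 (SE 0.32) on the log2 scale between them (adjusted p = 1.46e-06), the largest step of any of the 8 genes under this label. From 2 to 120 h it fell by 2.46 (SE 0.33, adjusted p = 1.09e-07), to 35.1 ± 4.25 CPM.

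The squalene enzymes started high. *Sqle* held 137.3 to 360 CPM at 2 h, 116.7 to 138.03 CPM at 24 h and 55.2 to 64.4 CPM at 120 h in DMSO libraries labelled WT. The groups at 2 and 120 h did not overlap, and *Sqle* fell by 2.13 (SE 0.26) between them (adjusted p = 2.4e-08). *Fdft1* held 82.5 to 208 CPM at 2 h, 190 to 265 CPM at 8 h, 87 to 135.9 CPM at 24 h and 47.2 to 56.4 CPM at 120 h. It rose by 0.72 (SE 0.28, adjusted p = 0.0435) from 2 to 8 h, then fell by 1.28 (SE 0.28, adjusted p = 0.000734) from 8 to 24 h and by 1.05 (SE 0.28, adjusted p = 0.00587) from 24 to 72 h. *Lss*, which closes the sterol rings, held 27.9 to 56.8 CPM at 2 h and 73.7 to 99.4 CPM at 8 h, without overlap. That rise was 0.99 (SE 0.25, adjusted p = 0.00213), and *Lss* then fell by 0.66 (SE 0.25, adjusted p = 0.0393) to 24 h and by 1.05 (SE 0.25, adjusted p = 0.00192) to 72 h.

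Of the enzymes ahead of squalene, *Mvd* had a sharp maximum at 8 h under the WT label. Its DMSO libraries held 5.34 to 29.7 CPM at 2 h, 47.6 to 59.3 CPM at 8 h, 12.5 to 21.7 CPM at 24 h and 6.48 to 9.01 CPM at 120 h. The 8 h libraries overlapped neither those of 2 h nor those of 24 h. *Mvd* rose by 1.64 (SE 0.40, adjusted p = 0.00176) from 2 to 8 h and fell by 1.86 (SE 0.40, adjusted p = 0.000592) from 8 to 24 h. *Fdps* held 5.44 to 9.29 CPM at 8 h and 1.68 to 2.25 CPM at 24 h, and fell by 2.10 (SE 0.68, adjusted p = 0.0166).

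*Hmgcs1*, the first enzyme, was not called lower in any vehicle comparison as reported. Its DMSO libraries labelled WT held 18.4 to 43 CPM at 2 h, 35.5 to 97.4 CPM at 8 h, 38.7 to 128.8 CPM at 12 h and 34.7 to 42.1 CPM at 120 h. It rose by 1.22 (SE 0.42, adjusted p = 0.0224) from 2 to 8 h, with overlapping groups, and no later step was called. Its mean at 120 h, 38.8 ± 3.50 CPM, lay above the 27.6 ± 10.9 CPM at 2 h, a log2 change of 0.31 that was not called. This direction depended on the correction for GC content. With the GC trend removed, *Hmgcs1* was called lower from 2 to 120 h (-0.78, adjusted p = 0.0344) and from 8 to 24 h (-1.11, adjusted p = 0.00807).

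Counted over the 8 genes under the WT label, 4 rose and none fell from 2 to 8 h, where 31.9% of 15862 genes tested were called in either direction. From 8 to 24 h 5 fell (29.1% of all genes called), and from 24 to 72 h 5 fell (22.7%). From 72 to 120 h none was called (3.48%), and DESeq2 called 0. In that step 0 members had an unadjusted p under 0.05, against 16.5% of all genes. From 2 to 120 h 5 fell, namely *Dhcr7*, *Cyp51*, *Sqle*, *Fdft1* and *Mvd*, in a comparison where 57.9% of all genes were called. The median log2 change of the 8 genes was 0.86, -0.97, -1.01, -0.08 and -1.44 in these 5 comparisons, against 0.00, 0.12, 0.06, 0.04 and 0.21 over all genes tested. From 2 to 120 h the share of members called was close to that of all genes called in either direction, and all member calls in the later comparisons were downward. Of all genes, 12.3% were called lower from 8 to 24 h, 12.4% from 24 to 72 h and 24.5% from 2 to 120 h. Consecutive steps share libraries (8 h, 24 h and 72 h) and are not independent. Some of these calls rested on single libraries. The rise of *Fdft1* to 8 h was lost without 6 of the 36 libraries in turn, that of *Hmgcs1* without 5, and the fall of *Lss* to 24 h without 5. The fall of *Mvd* to 120 h was lost without DMSO 2 h replicate 2 (-0.81, adjusted p = 0.0812) and that of *Sqle* to 72 h without DMSO 72 h replicate 2 (adjusted p = 0.0513). With the percent of pairs off genes added as a covariate, *Mvd* from 2 to 120 h was at -0.67 (adjusted p = 0.269) under the WT label and at -0.39 (adjusted p = 0.453) under the PkmΔDRE label, both no longer called. The same covariate ended 3 more calls under the WT label, those of *Lss* from 8 to 24 h (adjusted p = 0.0513) and of *Fdft1* (adjusted p = 0.0567) and *Sqle* (adjusted p = 0.07) from 24 to 72 h.

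Under the PkmΔDRE label, the DMSO libraries of 2 and 120 h gave the following levels. *Dhcr7* held 212 to 354 CPM at 2 h and 25.6 to 41.8 CPM at 120 h, and *Cyp51* held 162 to 267 and 20.5 to 55.5 CPM. *Mvd* held 24.0 to 47.3 CPM at 8 h and 10.1 to 25.4 CPM at 72 h, where the WT label had 47.6 to 59.3 and 4.83 to 15.8 CPM. From 2 to 120 h the same 5 genes fell, where 49.4% of 15968 genes were called, with *Dhcr7* at -3.36 (SE 0.58, adjusted p = 3.42e-05), *Cyp51* at -2.52 (SE 0.40, adjusted p = 1.34e-05), *Sqle* at -1.88 (SE 0.31, adjusted p = 1.93e-05), *Fdft1* at -1.83 (SE 0.41, adjusted p = 0.000599) and *Mvd* at -1.18 (SE 0.38, adjusted p = 0.0117). The median over the 8 genes was -1.50, against 0.24 over all genes, of which 22.7% were called lower. The single steps gave fewer calls. None of the 8 was called from 2 to 8 h (11% of all genes), from 8 to 24 h (3.33%) or from 72 to 120 h (0.0564%). In that order 0, 4 and 0 members had an unadjusted p under 0.05, against 25.5%, 24.2% and 7.33% of all genes. DESeq2 called none of the 8 in these 3 steps either. From 24 to 72 h only *Cyp51* fell, by 1.24 (SE 0.38, adjusted p = 0.0409; 8.74% of all genes), and this call was lost without 19 of the 36 libraries in turn. DESeq2 called 2 genes in that step.

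Leaving out the pair of libraries against their hour raised the number of calls in these 5 comparisons from 6 to 9. In the 4 h group *Dhcr7* stood at 36.7 CPM in replicate 4 and at 171 to 263 CPM in the other 3, and in the 96 h group at 282 CPM in replicate 4 and at 28.9 to 60.2 CPM in the other 3. Without this pair of libraries *Dhcr7* fell by 1.29 (adjusted p = 0.00763) and *Sqle* by 0.82 (adjusted p = 0.0344) from 8 to 24 h, where 12.5% of genes were then called. *Dhcr7* (-1.51, adjusted p = 0.00139) and *Cyp51* (-1.18, adjusted p = 0.0133) fell from 24 to 72 h, where 16.5% were called. None of the 8 was called from 2 to 8 h (17.4%) or from 72 to 120 h (1.04%), and the same 5 fell from 2 to 120 h (50.5%).

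**Figure D2:**
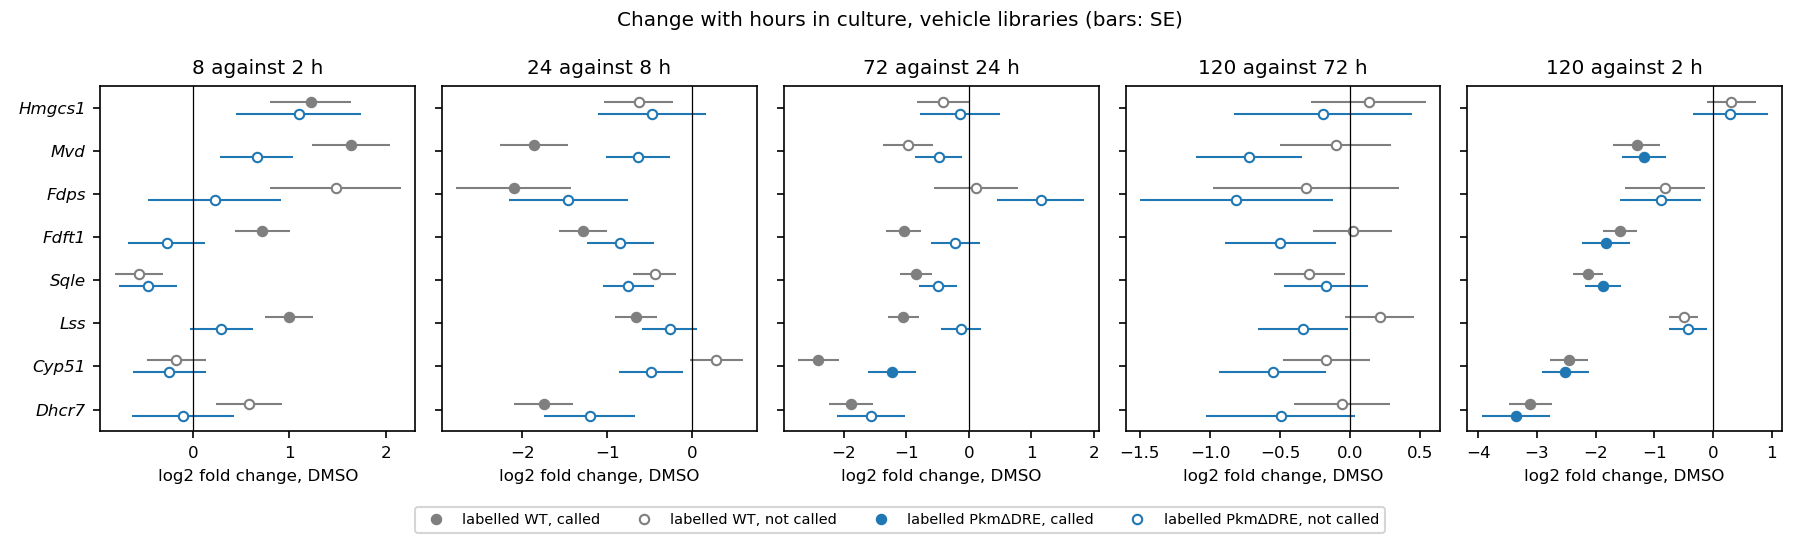
Log2 fold change of each enzyme between hours in DMSO libraries, in 5 panels, under the WT (grey) and PkmΔDRE (blue) labels. Bars are standard errors, filled points passed the test (adjusted p under 0.05 and at least 1.5-fold) and open points did not. The 120 against 2 h panel has 5 filled points under each label, all to the left of 0.

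The summed RNA of cell type markers moved with the same hours. The summed CPM of 5 hepatocyte markers (*Alb*, *Apoa1*, *Fgb*, *Serpina1c* and *Cyp2e1*, the last at 0 in 4 libraries) went from 117909 to 159466 at 2 h to 2563 to 16336 at 120 h in DMSO libraries labelled WT. That of 5 stellate or fibroblast markers went from 0.640 to 2.14 up to 22.5 to 184, and that of 4 cholangiocyte markers from 34.2 to 132.5 up to 140 to 193. Those of 5 macrophage markers went from 125.1 to 197 down to 13.3 to 40.9, and those of 4 endothelial markers from 123.4 to 263 down to 22.3 to 44.1. In these bulk samples fewer cells of a type and less RNA per cell cannot be told apart, and the part of cell makeup in the changes of the enzymes was not tested.

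The other enzymes of the pathway were counted in the same vehicle comparisons. Under the WT label 31.9% of all genes were called from 2 to 8 h, 29.1% from 8 to 24 h and 22.7% from 24 to 72 h. From 72 to 120 h it was 3.48%, and from 2 to 120 h 57.9%, against 49.4% under the PkmΔDRE label. Of 13 listed and tested, 2 rose and 1 fell from 2 to 8 h under the WT label (median -0.02, against 0.86 for the 8 members, and under the PkmΔDRE label -0.55 against 0.06), with mevalonate kinase *Mvk* at 1.86 and the desaturase *Sc5d* at -1.49 among them. From 8 to 24 h 4 fell, led by the sterol reductase *Tm7sf2* at -1.86 and the isomerase *Ebp* at -1.52. From 24 to 72 h 10 fell and 1 rose, and none was called from 72 to 120 h. From 2 to 120 h 10 fell and 1 rose (median -1.49), with *Tm7sf2* at -4.19, *Ebp* at -3.30, the methyl sterol oxidase *Msmo1* at -2.93, and *Ggps1*, which makes the longer isoprenoid for prenylation, at 2.49. For the PkmΔDRE label 9 fell and 1 rose over that span (median -1.91), again with *Ggps1* as the one that rose.

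Genes that control the pathway were counted in the same way, over the span of 2 to 120 h in which 57.9% of all genes were called under the WT label and 49.4% under the PkmΔDRE label. Of 7 SREBP regulators, 5 fell and 1 rose under the WT label. *Insig1*, which holds SREBPs in the endoplasmic reticulum and is itself a known SREBP target, fell by 3.03, *Scap*, their escort, by 1.54, and *Srebf2*, which encodes the SREBP most tied to cholesterol synthesis, by 0.82, while *Mbtps2*, a protease that releases SREBPs, rose by 2.36. For the PkmΔDRE label 4 fell and 1 rose, with *Insig1* at -2.62 and *Mbtps2* at 1.66. Of 8 genes for sterol export, esterification and the LXR sterol sensors, 6 fell under the WT label and 5 under the PkmΔDRE label over this span, and none rose.

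TCDD was compared with vehicle at each hour to ask how AHR activation touches the pathway. Under the WT label at 8 h, 3 of the 8 enzymes fell and none rose. In this comparison 37.4% of 12392 genes were called in either direction, so the share of members called was that of all genes. Of all genes 13.6% were called lower. *Mvd* held 47.6, 50.7, 51 and 59.3 CPM with DMSO and 15, 23.9, 29.8 and 33.5 CPM with TCDD. The groups did not overlap, and *Mvd* fell by 1.06 (SE 0.22) on the log2 scale (adjusted p = 0.00295). *Dhcr7* held 301, 309, 313 and 323 CPM with DMSO and 92.1, 185, 217 and 219 CPM with TCDD, again without overlap, and fell by 0.84 (SE 0.22, adjusted p = 0.00919). *Fdft1* held 190, 209, 257 and 265 CPM with DMSO and 80.1, 119.4, 154 and 177 CPM with TCDD, and fell by 0.83 (SE 0.21, adjusted p = 0.00833). The DMSO libraries of 8 h are the same ones that stood highest in the vehicle series above, so these falls and the vehicle maximum share their values.

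The other 5 enzymes were not called at 8 h. *Lss* was at -0.48 (SE 0.17, adjusted p = 0.0355), short of the 1.5-fold threshold. *Hmgcs1* pointed the other way, with 35.5, 42.5, 83.4 and 97.4 CPM with DMSO and 47.1, 133.5, 186 and 188 CPM with TCDD, a log2 change of 1.07 (SE 0.42, adjusted p = 0.0554). *Fdps*, *Sqle* and *Cyp51* were at -0.37, 0.04 and 0.33. The median over the 8 genes was -0.42, against 0.00 over all genes. Among the 13 other enzymes, 6 fell and 4 rose. The 4 with the largest changes were the isomerase *Idi1* (1.25), the sterol reductase *Lbr* (1.23) and *Ggps1* (1.10), which rose, and *Pmvk* (-1.11), the kinase just ahead of *Mvd*, which fell. Of the 7 SREBP regulators 1 rose, *Mbtps2* at 1.38, and of the 8 sterol export, esterification and LXR genes 2 fell, *Nr1h3* at -0.89 and *Nr1h2* at -0.62.

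Measures of library quality moved with treatment at this hour and label. Uniquely mapped pairs that fell on no gene made up 4.89% to 5.99% in the DMSO libraries and 8.36% to 21.9% in the TCDD libraries, without overlap. Under the PkmΔDRE label the same shares were 4.20% to 6.27% and 6.05% to 6.55%. Macrophage markers summed to 110.5 to 164 CPM with DMSO and 55.5 to 97 CPM with TCDD, and hepatocyte markers to 69092 to 80113 and 59768 to 68133 CPM. The members also differ in base composition, from 43.1% GC in the exons of *Hmgcs1* to 59% in those of *Mvd*. With the trend of log2 CPM on GC content taken out of each library, *Mvd* was at -0.60, *Dhcr7* at -0.59 and *Fdft1* at -0.66, all still called, *Lss* was called at -0.66, and *Hmgcs1* was at 0.29. With that share of pairs on no gene in the fit as a covariate, *Mvd* (-1.37) was still called, *Dhcr7* (-1.03) and *Fdft1* (-0.77) were not, and *Hmgcs1* was called at 2.45. With 1 surrogate variable in the fit of the 72 libraries of the label, none of the 8 was called and *Hmgcs1* changed sign, to -0.13. That fit called 60 of 16838 genes in all. The 3 falls were kept without any 1 of the 8 libraries in turn. The direction of *Mvd*, *Dhcr7* and *Fdft1* was the same in all 10 alternative settings, but its size was not.

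**Figure D3:**
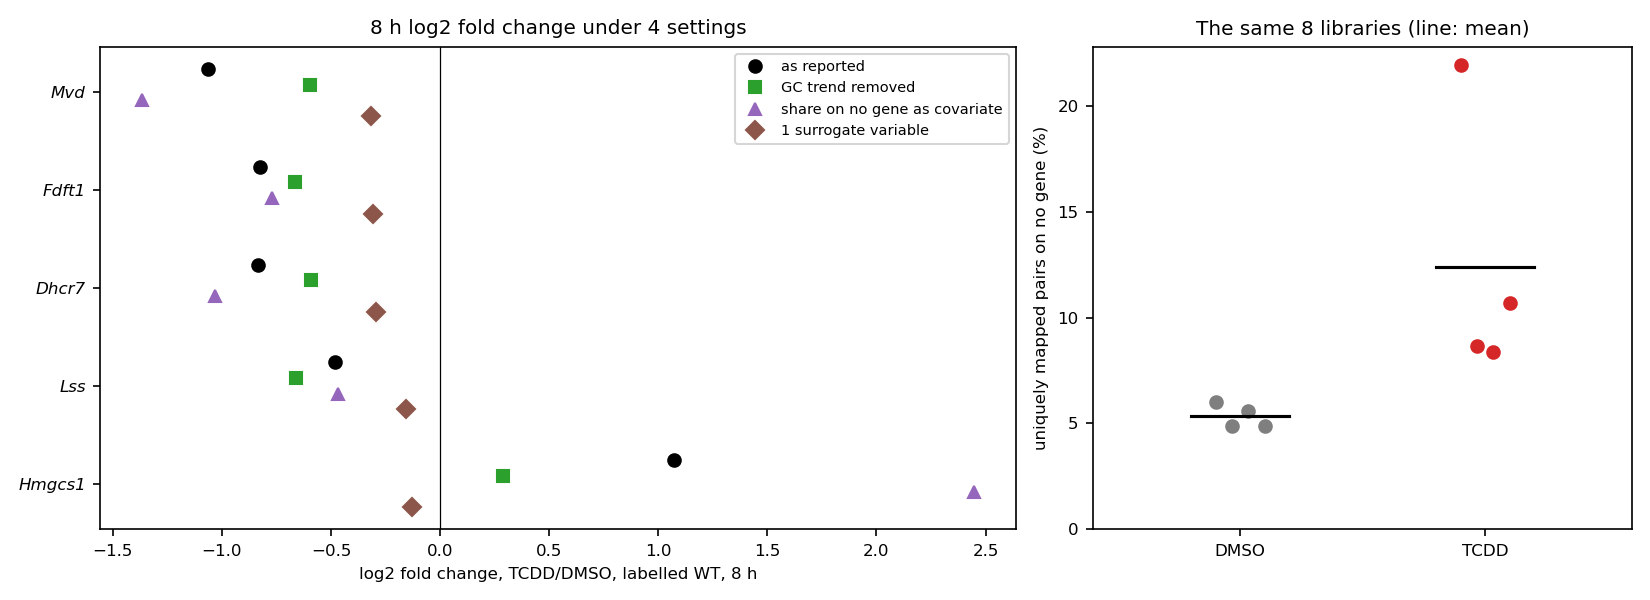
Left, log2 fold change of 5 enzymes with TCDD at 8 h under the WT label, as reported and under 3 other settings. Right, the percent of uniquely mapped pairs that fell on no gene in the same 8 libraries, with the mean as a line. *Mvd*, *Fdft1* and *Dhcr7* lie left of 0 in every setting and *Hmgcs1* crosses it, and the 4 TCDD libraries all lie above the 4 DMSO libraries.

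At 96 h under the WT label 2 of the 8 fell, where 15.1% of 13793 genes were called in either direction and 5.00% were called lower. *Dhcr7* held 32.1, 35.7, 45.3 and 52.9 CPM with DMSO and 23.2, 25.8, 27.7 and 28.0 CPM with TCDD, without overlap, and fell by 0.60 (SE 0.14, adjusted p = 0.00839). *Mvd* held 6.91, 9.01, 14.3 and 17.8 CPM with DMSO and 4.13, 7.03, 7.27 and 7.30 CPM with TCDD, and fell by 0.84 (SE 0.28, adjusted p = 0.0392), with overlapping groups. *Hmgcs1* was at 0.57 (SE 0.14, adjusted p = 0.0104), 1.49-fold and so just short of the threshold, and its groups of 28.4 to 46.4 and 48.2 to 55.6 CPM did not overlap. The fall of *Mvd* was lost without 6 of the 8 libraries in turn and that of *Dhcr7* without 3. Without the 7 libraries named above (the 4 by *Cyp1a1*, the 1 by strand, and the pair against their hour), *Mvd* was at -0.59 (adjusted p = 0.159) and *Hmgcs1* was called at 0.73. Both falls were also lost with the pairs on no gene as a covariate (*Dhcr7* -0.36, *Mvd* -0.24), a fit in which *Hmgcs1* (0.86, adjusted p = 0.00729) and *Cyp51* (0.80, adjusted p = 0.0349) were called higher with TCDD. They were lost as well with 1 surrogate variable (-0.37 and -0.52), with the GC trend removed (-0.44 and -0.58) and in the fit of all 72 libraries (-0.65 and -0.88). The median over the 8 genes was -0.18, against 0.01 over all genes, and none of the 28 genes in the 3 other lists was called. Unadjusted p (edgeR) was under 0.05 for 5 of the 7 SREBP regulators, 5 of the 13 other enzymes and 3 of the 8 sterol export, esterification and LXR genes. The same held for 44.3% of all genes. The smallest adjusted p in these lists was 0.00219, 0.00546 and 0.0127, for changes short of 1.5-fold. Pairs on no gene made up 6.21% to 9.40% with DMSO and 9.08% to 11.8% with TCDD, and cholangiocyte markers summed to 259 to 301 CPM with DMSO and 129.9 to 148 CPM with TCDD. The part of the markers in these changes was not tested.

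At the other 7 hours none of the 8 was called under the WT label. The share of all genes called there was 0% after 2, 4 and 72 h, 0.0321% after 12 h, 0.373% after 24 h, 0.00763% after 48 h and 1.46% after 120 h. DESeq2 called none of the 8 at these hours. Over the 9 hours, 12 of the 72 tests of members had an unadjusted p under 0.05, the 5 calls included. At 8 h 5 of the 8 members did, where 54.2% of all genes did. At 96 h 3 of the 8 did, where 44.3% of all genes did. At the other hours 1.37% to 17.1% of all genes did. *Hmgcs1* was at 1.52 (SE 0.46, adjusted p = 0.286) at 4 h, with 7.92, 25.6, 27.9 and 51.2 CPM with DMSO and 50.6, 68.3, 92.8 and 112.97 CPM with TCDD. The 112.97 CPM was in TCDD 4 h replicate 4, the library with *Cyp1a1* at only 10.2 CPM. At 24 h *Hmgcs1* was at 0.79 (SE 0.24, adjusted p = 0.303), with 25.5 to 66.6 against 70.5 to 80.3 CPM. At 120 h *Mvd* was at -0.57 (adjusted p = 0.128) and *Fdft1* at -0.41 (adjusted p = 0.0937), both without overlap between groups.

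No enzyme was called at any hour under the PkmΔDRE label. The share of all genes called was 0% after 2 and 4 h, 0.106% after 8 h, 0.024% after 12 h, 0.016% after 24 h, 0.404% after 48 h, 1.13% after 72 h, 0.0793% after 96 h and 0.633% after 120 h. Of the 72 tests of members 4 had an unadjusted p under 0.05, where 1.29% (24 h) to 14.2% (2 h) of all genes did. DESeq2 called none of the 8. The background depended on the method, most of all at 2 h, where DESeq2 called 565 of 12132 genes and edgeR with no filter on low counts called 1114 of 25922, *Hmgcs1* (1.03) among them. At 8 h *Mvd* held 24.0, 27.6, 29.8 and 47.3 CPM with DMSO and 26.2, 30.02, 30.1 and 42.3 CPM with TCDD, fully overlapping. *Dhcr7* held 201 to 366 CPM and 175 to 335 CPM. The smallest adjusted p was that of *Mvd* at 120 h, with 7.50, 8.58, 11.04 and 12.9 CPM with DMSO and 5.55, 5.90, 6.53 and 6.78 CPM with TCDD, at -0.71 (SE 0.22, adjusted p = 0.302). *Hmgcs1* was at 1.15 (SE 0.50, adjusted p = 0.332) at 2 h. At 96 h, where one of the libraries against their hour is in the DMSO group, *Dhcr7* was at -1.53 with all libraries and at -0.17 without that library. Without it none of the 8 was called at that hour either, where 2.25% of all genes were called. None of the 28 genes in the 3 other lists was called at any hour under this label.

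A call under one label does not show that the labels differ, so the difference in TCDD response was tested at each hour. No enzyme was called in any of the 9 interaction tests by edgeR or by DESeq2, and 3 of 72 tests had an unadjusted p under 0.05. The share of all genes called was 0.00715% at 48 h, 0.00695% at 72 h and 0% at the other 7 hours. The smallest adjusted p was that of *Mvd* at 8 h, with a log2 change 0.94 higher under the PkmΔDRE label (SE 0.33, adjusted p = 0.292). The difference of *Hmgcs1* at 4 h was -1.41 (SE 0.56, adjusted p = 0.526) and that at 96 h was -0.91 (SE 0.34, adjusted p = 0.295). Without the pair of libraries against their hour these were -1.50 (adjusted p = 0.716) and -0.98 (adjusted p = 0.138), and none of the 8 was called at either hour, nor with TCDD at 4 h under the PkmΔDRE label. These standard errors leave room for sizeable differences, and the tests do not show that the labels respond alike.

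**Figure D4:**
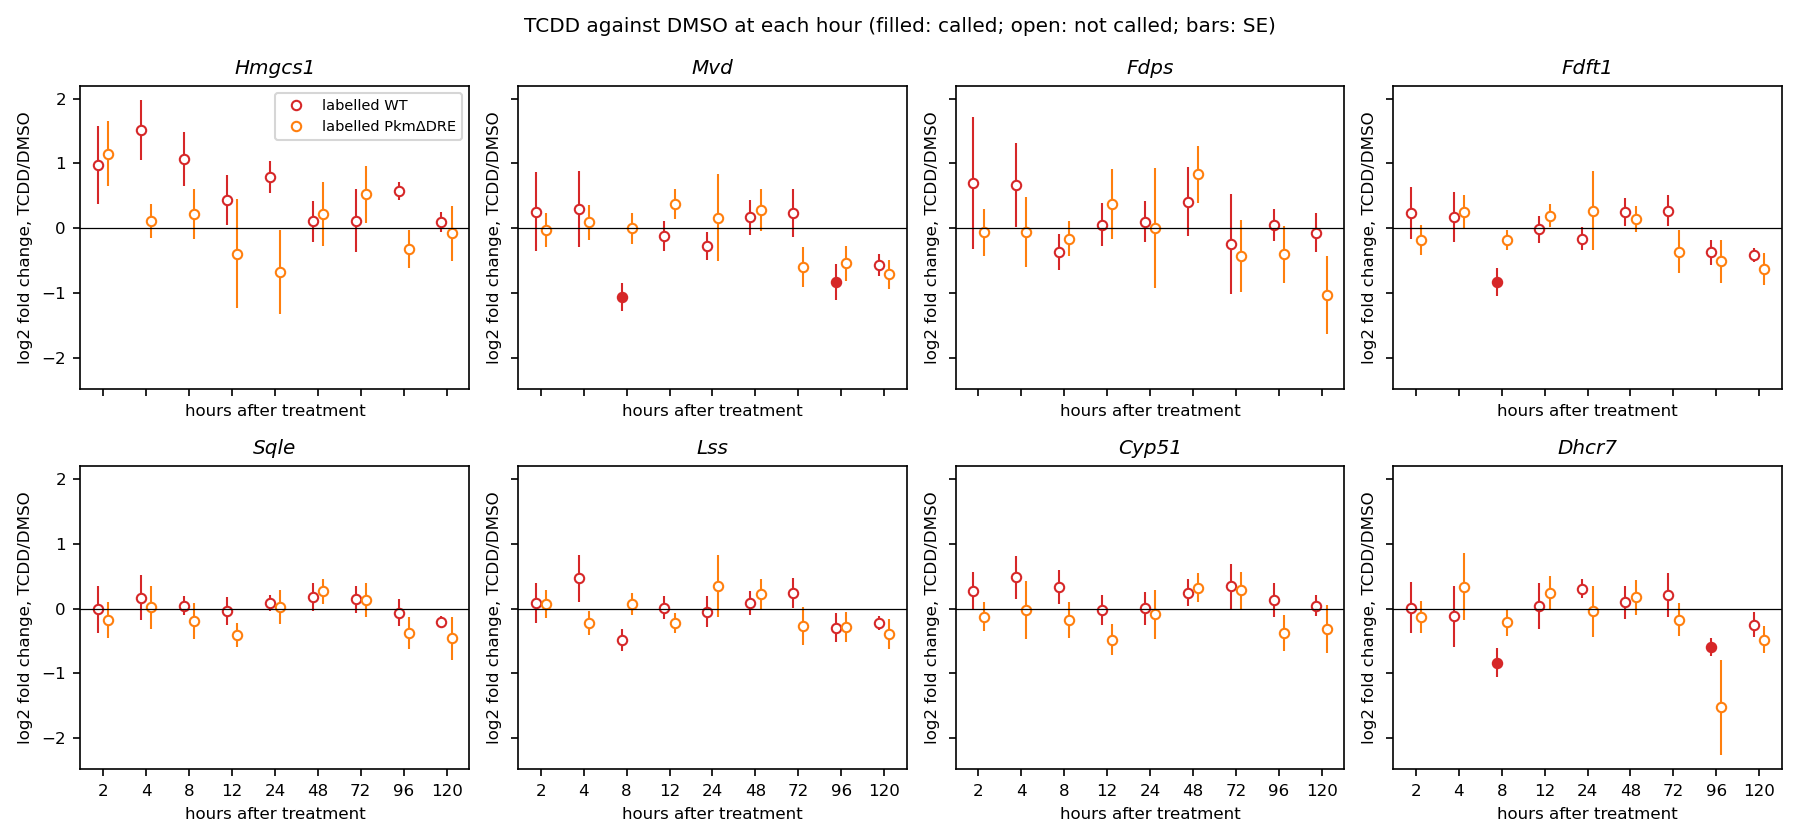
Log2 fold change of each enzyme with TCDD against DMSO at the 9 hours, under the WT (red) and PkmΔDRE (orange) labels. Bars are standard errors, and filled points passed the test. The 5 filled points are all under the WT label, for *Mvd*, *Fdft1* and *Dhcr7* at 8 h and *Mvd* and *Dhcr7* at 96 h, all below 0.

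The labels were also compared in vehicle alone. Averaged over 2 to 12 h, no enzyme was called (1.37% of 16973 genes were), with *Mvd* at -0.45 (SE 0.20, adjusted p = 0.259) under PkmΔDRE relative to WT. Averaged over 24 to 120 h none was called (0.742%), with *Mvd* at 0.56 (SE 0.18, adjusted p = 0.0993), *Dhcr7* at 0.53 (SE 0.21, adjusted p = 0.202) and *Fdft1* at 0.42 (SE 0.16, adjusted p = 0.180). In all, 4 of these 16 tests had an unadjusted p under 0.05, and DESeq2 called 1, *Mvd* at 24 to 120 h, at 0.59. Of the other enzymes *Tm7sf2* was called at 24 to 120 h, at 0.89 (adjusted p = 0.0424), but not without the pair of libraries against their hour, at 0.47 (adjusted p = 0.103). Without that pair none of the 8 was called in either span, with *Mvd* at -0.40 (adjusted p = 0.375) and 0.54 (adjusted p = 0.111) and *Dhcr7* at 0.26 in the later one. The spans of 2 to 12 h and 24 to 120 h hold different hours, and the change of *Mvd* between them was not tested.

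Over the 36 group means the enzymes followed each other to different degrees. The correlation of log2 CPM with the mean of the other 7 enzymes was 0.946 for *Fdft1*, 0.915 for *Dhcr7*, 0.905 for *Cyp51*, 0.897 for *Mvd*, 0.888 for *Sqle*, 0.807 for *Lss*, 0.723 for *Fdps* and 0.403 for *Hmgcs1*. Of the 28 pairs, *Fdft1* and *Dhcr7* were the most alike (r = 0.957) and *Hmgcs1* and *Dhcr7* the least (r = 0.267). Within groups, after each group's mean was removed, the pairs ranged from r = -0.193 for *Hmgcs1* and *Dhcr7* to r = 0.848 for *Mvd* and *Fdft1* (median 0.441). These points share libraries, hours in culture and depth, so the values are a description. Among 12211 genes the profile most like the mean of the 8 enzymes was that of *Msmo1* (r = 0.932), the methyl sterol oxidase of the same pathway. *Gtf2h3* (0.916), *Inhbe* (0.915), *Gml* (0.908), *Mfsd2a* (0.908), *2310033P09Rik* (0.908), *Gnat1* (0.907), *Gml2* (0.907) and *Fyb2* (0.903) were also among the 10 highest. *Pmvk* and *Nsdhl*, of the pathway too, were picked out after their values were seen and stood at ranks 16 and 17 (0.898 and 0.897).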

How the data were processed

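RNA of all libraries was sequenced as unstranded pairs of 150 bases. Per the labels and the study's methods, the authors trimmed reads with Trimmomatic 0.39 and aligned them with STAR (2.7.3a) to GRCm39, release 104. The deposited values are raw read-pair counts per gene, not normalized, and the unstranded column was used. The 4 lines that name no gene held 16.8% to 48.0% of pairs (median 24.2%) and were left out.

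Symbols and positions came from reference tables. Groups came from the labels. Each test was edgeR's (4.0.16, R 4.3.3) quasi-likelihood test with TMM scaling, filterByExpr (count minimum of 10) and Benjamini-Hochberg adjustment over all genes tested. A gene was called at an adjusted p under 0.05 and at least 1.5-fold. TCDD was compared with DMSO in the 8 libraries of a label and hour, the interaction in the 16 of an hour, hours in the 36 DMSO libraries of a label, and labels in all 72 DMSO libraries. CPM are counts scaled to the pairs on genes of each library, after these were adjusted by TMM scaling. Alternatives used RLE scaling, DESeq2 (1.42.0), sva (3.50.0), other filters, thresholds, fits and covariates, and leaving out each library. The GC correction and the fits without doubted libraries were chosen after seeing the data. The fitting steps were tested on simulated data.

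Named genes were the 8 members, listed genes called where members were called (at most 4 a list), and the most alike profiles (Pearson r over group means of log2 CPM plus 0.5, genes with a mean of at least 1 CPM). Members and lists were chosen with earlier results of these data known. Single values of some listed or most alike genes are not reported here.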

Additional observations from a re-analysis of the deposited data

Results flagged for a closer look

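In 19 of the 288 groups of 4 libraries (8 enzymes, 36 groups) 1 library stood apart from the other 3 by Dixon's test, which is 6.60% of groups where chance gives about 1 in 20. PkmΔDRE DMSO 72 h replicate 2 stood apart for *Fdps* (10.7 CPM), *Fdft1* (174 CPM) and *Lss* (85.1 CPM). The pair of PkmΔDRE libraries against their hour stood apart for *Fdft1* in DMSO 4 h replicate 4 (76.97 CPM) and for *Dhcr7* in DMSO 96 h replicate 4 (282.0 CPM). PkmΔDRE TCDD 2 h replicate 2 stood apart for *Fdft1* (100.4 CPM) and *Lss* (30.6 CPM).

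Under the WT label, *Mvd* stood apart in DMSO 72 h replicate 4 (15.8 CPM) and in TCDD 96 h replicate 1 (4.13 CPM), the latter in a group whose fall was called. *Lss* stood apart in DMSO 48 h replicate 4 (36.4 CPM), TCDD 12 h replicate 2 (118.8 CPM) and TCDD 72 h replicate 3 (22.3 CPM). The same held for *Hmgcs1* in TCDD 120 h replicate 3 (29.6 CPM), *Sqle* in TCDD 48 h replicate 3 (152 CPM) and *Cyp51* in DMSO 12 h replicate 4 (200 CPM). Under the PkmΔDRE label it held for *Sqle* in DMSO 8 h replicate 4 (104.6 CPM) and TCDD 8 h replicate 1 (93.2 CPM), *Cyp51* in DMSO 12 h replicate 2 (214 CPM) and *Dhcr7* in TCDD 24 h replicate 2 (77.8 CPM).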

How the results depend on the processing

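For the 6 results tested, each call of an enzyme in a comparison was counted, so an enzyme can count more than once. The number of calls under the WT label with TCDD was 5. It was 3 with the other libraries of the label in the fit, 0 with 1 surrogate variable, 4 with the pairs on no gene as a covariate (1 of the 5 kept), 4 with the GC trend removed (3 kept), and 3 to 6 without each library in turn (3 without TCDD 96 h replicate 3, 6 without DMSO 8 h replicate 4 or TCDD 8 h replicate 1). Under the PkmΔDRE label it was 0, and 1 with no filter on low counts, where *Hmgcs1* at 2 h was at 1.03. That count and the interaction count of 0 stayed at 0 without each library in turn. In vehicle, 19 calls under the WT label ranged from 16 to 20 without each library and from 15 to 23 over the settings, and 6 under the PkmΔDRE label from 5 to 7 and from 5 to 9. Between labels in vehicle the count was 0, 0 to 1 without each library in turn (1 without PkmΔDRE DMSO 24 h replicate 2, PkmΔDRE DMSO 48 h replicate 2 or WT DMSO 72 h replicate 4), and 1 by DESeq2 (*Mvd*, 24 to 120 h, adjusted p = 0.023). *Hmgcs1* with TCDD at 8 h under the WT label, at 1.07, reversed to -0.13 with 1 surrogate variable. With the GC trend removed *Hmgcs1* from 2 to 120 h in vehicle, at 0.31 under the WT label, reversed to -0.78. The cause was not tested for any of these. The called genes kept their direction in every setting, with the call kept in 251 values and lost in 24. Motif counts were equal in the 250 bases before the start. No paired analysis was possible because the labels give no replicate number, animal or batch and the titles carry only a running number. *Fdps*, with a median of 52.5 pairs a library, carries the most counting error, and the cause of its low counts was not tested.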
